A study of Mus musculus with 36 samples.

Results

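Distal forelimb tissue of mouse embryos that carry the Del(CBS1-4) allele was compared with distal forelimb tissue of wild-type (WT) embryos at stage E12.5, when the digits are being laid down. The comparison holds 6 RNA-seq libraries, 3 per group, chosen by genotype and tissue from the 36 of the series, which covers WT and 5 alleles in distal and proximal forelimb. Del(CBS1-4) was made by CRISPR/Cas9, and its name places it in a row of alleles, from Del(CBS1) through Del(CBS1-2), Del(CBS1-3) and this one up to Del(CBS1-5), that lack binding sites (CBS) of the chromatin-looping protein CTCF at the Hoxd cluster. Both groups share the strain label B6CBAF1. Each library was made from one dissected pair of forelimbs, so the replicates are embryos. The labels do not state zygosity, the number of mouse lines, litters, dates or whether the WT embryos were littermates. The question of the design was how far the loss of these CTCF sites alters transcription of the Hoxd genes and of other genes in the developing limb.

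The 6 libraries held 13977972 to 16210649 counts. Levels are given as CPM, read counts scaled by TMM to one common library size. Xist and the Y-linked Ddx3y put 1 male and 2 females in each group (Del(CBS1-4) replicate 2 and WT replicate 3 were male), and genes of the X, Y and mitochondrial chromosomes were not in the count table. The digit gene Hoxd13 averaged 846 ± 66.3 CPM in distal Del(CBS1-4) libraries and 53.8 ± 29.5 CPM in their proximal counterparts (SD, n = 3 each). In WT embryos the values were 1023 ± 103 CPM for distal and 54.0 ± 31.2 CPM for proximal tissue, so that Hoxd13 separated the tissues as labelled. The WT libraries were spread out. On the first principal component, which held 35.04% of the variance of the 6 libraries, the Del(CBS1-4) libraries lay at -23.0, -13.9 and -24.9. WT replicates 1 and 3 both lay at 36.6 there, while WT replicate 2 lay at -11.3, next to the mutants but outside their range. The second component (22.1%) parted the other WT libraries, with replicates 1, 2 and 3 at 36.5, -6.20 and -34.9. The counts of called genes and the main gene lists are also given without WT replicate 2. That library was picked from these same values, as the WT library nearest the mutants on the first component.

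The Hoxd genes encode homeodomain transcription factors and lie side by side in the order in which they act along the body and limb axes. In the future digits, enhancers on the centromeric side, beyond Evx2 and Lnpk, drive Hoxd13 most strongly and the neighbouring genes less so, while in the forearm enhancers on the telomeric side drive Hoxd genes nearer the middle of the cluster. CTCF sites between the genes act as anchors of chromatin loops and as boundaries between these regulatory landscapes.

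The promoter windows of the 5 genes that carried most of the Hoxd signal are shown so that the affected part of the cluster can be read from its digit end, Hoxd13, towards Hoxd9. Each window spans 250 bases before to 50 bases after the RefSeq gene start on GRCm38.p6, plus strand, at chr2:74667975-74668274 for Hoxd13, chr2:74674763-74675062 for Hoxd12, chr2:74682073-74682372 for Hoxd11, chr2:74691641-74691940 for Hoxd10 and chr2:74697513-74697812 for Hoxd9. Capitals mark matches on either strand to the letters TATAAA for a TATA-type box, to CCAAT for the box that bears this name and to GGGCGG for a GC box.
Hoxd13: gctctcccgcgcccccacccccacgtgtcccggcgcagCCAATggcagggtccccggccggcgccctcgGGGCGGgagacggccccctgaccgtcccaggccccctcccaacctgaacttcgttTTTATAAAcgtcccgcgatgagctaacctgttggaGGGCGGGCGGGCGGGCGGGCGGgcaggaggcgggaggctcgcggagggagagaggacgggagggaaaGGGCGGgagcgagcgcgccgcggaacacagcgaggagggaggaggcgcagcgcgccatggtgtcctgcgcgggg
Hoxd12: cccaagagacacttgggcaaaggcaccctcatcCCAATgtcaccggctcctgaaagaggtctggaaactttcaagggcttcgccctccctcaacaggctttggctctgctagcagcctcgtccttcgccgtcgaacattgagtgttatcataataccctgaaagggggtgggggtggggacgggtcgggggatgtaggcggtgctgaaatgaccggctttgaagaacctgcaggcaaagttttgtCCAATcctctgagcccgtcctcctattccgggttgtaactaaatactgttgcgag
Hoxd11: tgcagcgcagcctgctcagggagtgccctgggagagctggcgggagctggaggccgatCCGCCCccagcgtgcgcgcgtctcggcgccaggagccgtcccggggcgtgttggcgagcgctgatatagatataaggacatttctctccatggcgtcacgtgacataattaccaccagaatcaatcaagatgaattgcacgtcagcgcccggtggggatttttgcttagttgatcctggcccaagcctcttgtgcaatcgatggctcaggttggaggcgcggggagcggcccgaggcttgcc
Hoxd10: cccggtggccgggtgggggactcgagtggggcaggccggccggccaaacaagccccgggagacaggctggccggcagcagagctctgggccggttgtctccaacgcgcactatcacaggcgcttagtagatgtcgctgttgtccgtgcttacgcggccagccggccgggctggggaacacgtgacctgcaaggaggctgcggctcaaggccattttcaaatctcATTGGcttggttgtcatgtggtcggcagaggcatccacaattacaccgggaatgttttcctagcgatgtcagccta
Hoxd9: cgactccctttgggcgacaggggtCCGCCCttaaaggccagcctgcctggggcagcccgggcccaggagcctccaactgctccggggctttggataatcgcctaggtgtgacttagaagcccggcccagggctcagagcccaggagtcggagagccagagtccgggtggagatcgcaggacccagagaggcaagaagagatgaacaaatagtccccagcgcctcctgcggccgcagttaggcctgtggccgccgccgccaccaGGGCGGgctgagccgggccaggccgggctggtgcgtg

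The Hoxd13 window held 7 GC boxes, some of them overlapping, 1 CCAAT box and a TATA box read on both strands. Hoxd12 held 2 CCAAT boxes, Hoxd11 had 1 GC box, Hoxd10 had 1 CCAAT box and Hoxd9 held 2 GC boxes. Of all 32851 mouse promoter windows of this length, 13.6% held TATAAA, 37.4% held CCAAT and 35.7% held GGGCGG. The windows shown were rich in CpG dinucleotides, with 37 in Hoxd13, 13 in Hoxd12, 25 in Hoxd11, 22 in Hoxd10 and 20 in Hoxd9, against a median of 7 over all promoters. RefSeq lists a second Hoxd11 window further upstream, at chr2:74679308-74679607, which held 4 CpG dinucleotides and no match to these motifs. The coordinates of the deleted CTCF sites were not analysed here.

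Hoxd12, Hoxd11, Hoxd10 and Hoxd9 were lower in Del(CBS1-4) than in WT distal forelimb, by 1.04 on the log2 scale for Hoxd10, while Hoxd13, the most abundant Hoxd transcript in both groups, did not pass edgeR's test. Of 15361 genes tested, 13 passed an adjusted p under 0.05 (0.0846%; edgeR's quasi-likelihood test with Benjamini-Hochberg adjustment over all genes), 8 of them lower (0.0521%) and 5 higher (0.0325%) in Del(CBS1-4). Of the 8 genes that fell, 4 were Hoxd genes. In bulk tissue, fewer cells making a transcript and less RNA per cell cannot be told apart.

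Hoxd10 (chr2, mm10, 74691924 to 74695105) had 51.5, 56.1 and 54.4 CPM in Del(CBS1-4) libraries, against 112, 116 and 104 CPM in WT libraries. The groups were far apart and each was tight, so that Hoxd10 averaged 54.0 ± 2.34 CPM in Del(CBS1-4) and 111 ± 5.90 CPM in WT, a level 48.7% of WT. Its log2 fold change was -1.04 ± 0.07 (SE), with an adjusted p of 2.4e-07, the lowest of all genes tested. Hoxd11 (74682323 to 74684168), which shapes the forearm and digits together with its HoxA paralogue, had 35.3, 38.8 and 30.5 CPM in Del(CBS1-4) and 71.8, 57.4 and 73.0 CPM in WT. No Del(CBS1-4) library reached the lowest WT library, and the log2 fold change was -0.95 ± 0.11, with an adjusted p of 0.000792. Hoxd9 (74697727 to 74700208), which acts with its paralogues in the upper limb, had 6.70, 7.73 and 7.29 CPM in Del(CBS1-4) and 29.1, 19.5 and 23.9 CPM in WT. At 29.95% of WT it was the called Hoxd gene with the greatest relative loss, by a log2 fold change of -1.74 ± 0.22 and an adjusted p of 0.00118.

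Hoxd12 (74675013 to 74677705), a digit gene next to Hoxd13, had 283, 293 and 222 CPM in Del(CBS1-4) and 395, 405 and 435 CPM in WT, again without overlap. Its log2 fold change was -0.63 ± 0.09, with an adjusted p of 0.00642. Hoxd13 (74668310 to 74671599), the main Hoxd gene of the digits, had 863, 902 and 773 CPM in Del(CBS1-4) and 916, 1122 and 1032 CPM in WT. Every Del(CBS1-4) library lay below every WT library, but the difference, a log2 fold change of -0.28 ± 0.08, had an adjusted p of 0.107 with edgeR. DESeq2, which called 295 genes (1.92%), called Hoxd13 lower with an adjusted p of 0.0255. Relative to WT the mean level was 82.7% for Hoxd13, 64.6% for Hoxd12, 51.7% for Hoxd11, 48.7% for Hoxd10 and 29.95% for Hoxd9, so from Hoxd13 to Hoxd9 the share of the WT level that was left was smaller at each gene. For the next gene, Hoxd8, it was 43.1%. Differences between these shares were not tested.

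The genes on the telomeric side were sparse in distal tissue of both groups. Hoxd8 (74704615 to 74707933) had 1.78, 2.74 and 3.82 CPM in Del(CBS1-4) and 9.42, 2.57 and 7.35 CPM in WT, where the low WT value was that of replicate 2 and the groups overlapped. Its log2 fold change of -1.21 ± 0.43 had an adjusted p of 0.184. Hoxd4 (74721978 to 74729160) had 0.641, 2.04 and 1.46 CPM in Del(CBS1-4) and 7.44, 2.57 and 4.86 CPM in WT, with a log2 fold change of -1.84 ± 0.46 and an adjusted p of 0.0912. Hoxd3 (74711927 to 74748271) averaged 0.189 ± 0.206 CPM in Del(CBS1-4) and 1.0 ± 0.633 CPM in WT, with an adjusted p of 0.148. The Hoxd3 and Hoxd4 gene models overlap, so reads in their shared part cannot be assigned to one of them, and Hoxd1, with 1 count over the Del(CBS1-4) libraries and 0 over the WT libraries, was not tested.

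**Figure D1:**
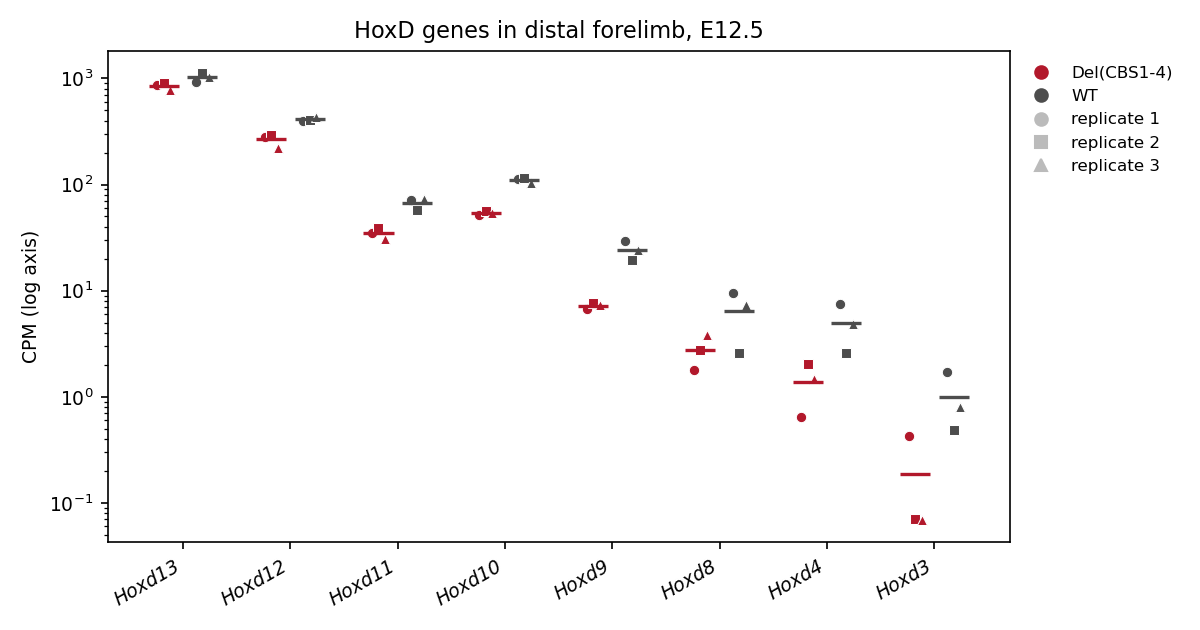
Level of each tested Hoxd gene in the 6 distal forelimb libraries, in CPM on a log axis, with Del(CBS1-4) left of WT; points are libraries and lines are means. Hoxd12, Hoxd11, Hoxd10 and Hoxd9 are separated between the groups, and for Hoxd8 1 WT library, replicate 2 at 2.57 CPM, lies among the Del(CBS1-4) libraries.

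All 8 tested Hoxd genes had a log2 fold change below 0, with a median of -1.13, against a median of -0.01 over all genes tested. In 7 of the 8 every Del(CBS1-4) library lay below every WT library, which held for 7.96% of all genes tested. The summed level of the cluster was 1242, 1302 and 1092 CPM in Del(CBS1-4) and 1542, 1725 and 1681 CPM in WT, and Hoxd13 made up most of it in both groups. Per transcript length, Hoxd13 stood at 235 ± 17.2 FPKM in Del(CBS1-4) and 283 ± 25.5 FPKM in WT. Hoxd12 followed with 72.0 ± 10.1 FPKM in Del(CBS1-4) and 111 ± 4.49 FPKM in WT. Hoxd10 stood at 19.2 ± 0.863 FPKM in Del(CBS1-4) and 40.6 ± 2.56 FPKM in WT, and Hoxd11 at 17.3 ± 1.84 FPKM in Del(CBS1-4) and 32.8 ± 5.67 FPKM in WT. The levels of these neighbours in the order, Hoxd10 and Hoxd11, overlapped within their spread in Del(CBS1-4), and Hoxd9 came last of the 5 with 2.25 ± 0.135 FPKM in Del(CBS1-4) and 7.58 ± 1.58 FPKM in WT. Leaving out WT replicate 2 brought the number of called Hoxd genes to 6, with Hoxd8 and Hoxd4 added, and the median to -1.32. In a fit of only the 6 libraries compared the number was 2, Hoxd10 and Hoxd9, and the calls of Hoxd11 and Hoxd12 were lost.

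On either side of the cluster no gene passed edgeR's test. Of 17 flanking genes listed, 14 were tested and 11 of these had a log2 fold change below 0, with a median of -0.12. At an unadjusted p under 0.05, 5 of them were lower (7.15% of all genes) and 0 higher, and DESeq2 called 1 lower (0.716% of all genes). Evx2, a homeobox gene next to Hoxd13 that shares its digit enhancers, had 117, 126 and 93.6 CPM in Del(CBS1-4) and 107, 137 and 108 CPM in WT. These groups overlapped, with a log2 fold change of -0.07 ± 0.11 and an adjusted p of 0.823. For Lnpk, which encodes a protein of endoplasmic reticulum junctions and is also expressed in digits, the log2 fold change was -0.26 ± 0.12 with an adjusted p of 0.288. Mtx2, a mitochondrial import gene on the telomeric side, differed by 0.03 ± 0.06 on the log2 scale. The 2 flanks with the smallest p were Chn1, which encodes a Rac-inactivating chimaerin, and Atf2, a bZIP transcription factor. Chn1 had 62.8, 59.3 and 60.1 CPM in Del(CBS1-4) and 70.4, 72.9 and 70.9 CPM in WT, with a log2 fold change of -0.24 ± 0.05 and an adjusted p of 0.0845. Atf2 had 111, 116 and 118 CPM in Del(CBS1-4) and 125, 129 and 134 CPM in WT, with a log2 fold change of -0.17 ± 0.05 and an adjusted p of 0.0989. Both were without overlap between the groups, and in both the difference was small.

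Within 10 Mb of Hoxd13, the Hoxd genes left out, 0 of 96 tested genes passed edgeR's test and the median log2 fold change was 0.02. At an unadjusted p under 0.05, 12 of the 96 were higher, against 8.12% of all genes tested, and 12 were lower, against 7.15%. Among the 96 genes, the unnamed transcript model Gm14396, chosen after its values were seen, lies between Hoxd10 and Hoxd9 (74695520 to 74697365). Gm14396 had 0.926, 1.33 and 0.625 CPM in Del(CBS1-4) and 3.07, 3.19 and 1.87 CPM in WT. The groups did not overlap, and the log2 fold change of -1.49 ± 0.34 had an adjusted p of 0.0815. The labels do not state whether counting used the strand, and overlapping models could share reads.

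**Figure D2:**
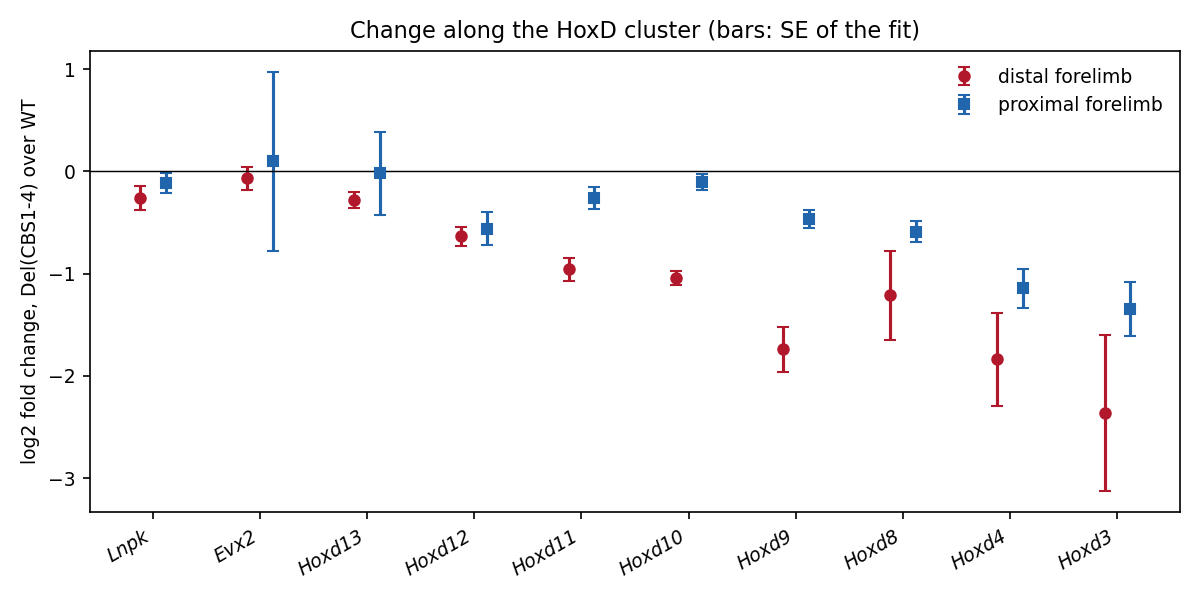
Log2 fold change of Del(CBS1-4) over WT, with its SE, for Lnpk, Evx2 and the Hoxd genes in chromosomal order, in distal and in proximal forelimb (3 libraries per group). In distal tissue the values of the 5 genes with the highest levels run from -0.28 at Hoxd13 to -1.74 at Hoxd9; in proximal tissue Hoxd10 is at -0.10 and Hoxd9 at -0.46.

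Outside the Hoxd cluster 9 genes passed the test, 5 higher and 4 lower in Del(CBS1-4). Rprm, a gene induced by p53 that halts the cell cycle, had the largest fold change of the genes that rose. It lies on chr2 (54084093 to 54085552), as Hoxd does. Rprm had 98.4, 81.1 and 106 CPM in Del(CBS1-4) and 32.8, 48.1 and 44.6 CPM in WT, with a log2 fold change of 1.18 ± 0.19 and an adjusted p of 0.0125. All 3 mutant libraries were above all WT libraries. Ccn2 (chr10, 24595442 to 24598683), a secreted matricellular protein of cartilage and connective tissue, had 23.6, 15.9 and 23.9 CPM in Del(CBS1-4) and 8.60, 12.1 and 10.7 CPM in WT. Its log2 fold change was 1.01 ± 0.16, with an adjusted p of 0.0125. Cd9 (chr6, 125460266 to 125494791), a tetraspanin of the cell surface, had 38.7, 29.1 and 40.9 CPM in Del(CBS1-4) and 19.8, 24.2 and 19.1 CPM in WT, with a log2 fold change of 0.78 ± 0.14 and an adjusted p of 0.0393. For both genes the Del(CBS1-4) library closest to WT was replicate 2 and the WT library closest to Del(CBS1-4) was replicate 2.

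Cdk5rap1 (chr2, 154335380 to 154373010), which modifies mitochondrial transfer RNAs, had 23.6, 26.4 and 22.1 CPM in Del(CBS1-4) and 16.7, 13.6 and 14.6 CPM in WT. The log2 fold change was 0.68 ± 0.09 and the adjusted p 0.00285. Hs6st1 (chr1, 36068400 to 36106446), a sulfotransferase that adds sulfate to heparan sulfate, averaged 102 ± 8.33 CPM in Del(CBS1-4) and 76.2 ± 3.45 CPM in WT, with a log2 fold change of 0.42 ± 0.07 and an adjusted p of 0.0151. The genes that fell outside the cluster all changed by less than 1.5-fold. Scd1 (chr19, 44394455 to 44407879), the desaturase that makes monounsaturated fatty acids, had 73.0, 70.9 and 65.9 CPM in Del(CBS1-4) and 105, 85.9 and 108 CPM in WT, a log2 fold change of -0.52 ± 0.07 with an adjusted p of 0.00252. Odc1 (chr12, 17544794 to 17551084), which opens polyamine synthesis, averaged 58.3 ± 4.12 CPM in Del(CBS1-4) and 77.1 ± 1.38 CPM in WT, a log2 fold change of -0.40 ± 0.07 with an adjusted p of 0.0393. The remaining pair act on messenger RNA. Rc3h1 (chr1, 160906418 to 160974978), which encodes the mRNA decay factor Roquin, averaged 69.0 ± 1.0 CPM in Del(CBS1-4) and 84.2 ± 2.45 CPM in WT, with a log2 fold change of -0.29 ± 0.05 and an adjusted p of 0.0325. Tut4 (chr4, 108459426 to 108559421), which adds uridines to RNA ends, averaged 283 ± 5.27 CPM in Del(CBS1-4) and 341 ± 20.4 CPM in WT, with a log2 fold change of -0.27 ± 0.04 and an adjusted p of 0.0150.

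**Figure D3:**
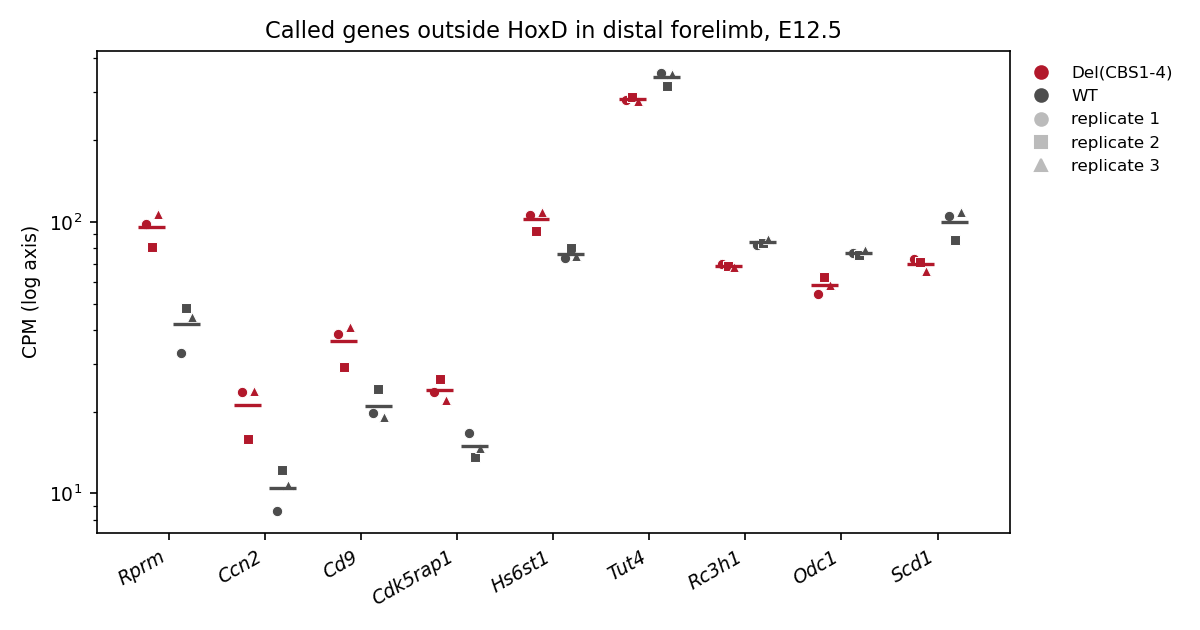
Levels of the 9 called genes outside the Hoxd cluster in each distal forelimb library, in CPM on a log axis, with Del(CBS1-4) left of WT. Every gene separates the groups, with Rprm at 81.1 to 106 CPM in Del(CBS1-4) and 32.8 to 48.1 CPM in WT.

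The 4 Hoxd genes, Scd1 and Cdk5rap1 passed the threshold in each of 6 fits that left out 1 of the libraries compared. Rprm, Ccn2, Cd9, Hs6st1, Odc1, Rc3h1 and Tut4 passed it in 2 of these 6, without WT replicate 2 or without Del(CBS1-4) replicate 2. All these fits kept the distal libraries of the other alleles. In a fit of only the 6 libraries compared, Hoxd10 and Hoxd9 passed, while Hoxd11, Hoxd12, Scd1 and Cdk5rap1 did not. The count of 13 called genes became 525 without WT replicate 2 and 113 without Del(CBS1-4) replicate 2, and 7 without WT replicate 1, WT replicate 3 or Del(CBS1-4) replicate 1, and 6 without Del(CBS1-4) replicate 3. At an unadjusted p under 0.05, 2347 genes (15.3%) differed. Of the 13 called genes 6 (46.2%) lie on chromosome 2, which holds 8.09% of the genes tested: the 4 Hoxd genes, Rprm and Cdk5rap1.

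In the other alleles the levels of the called genes outside the cluster fell into several patterns. In distal tissue Rprm averaged 41.9 ± 8.02 CPM in WT, 45.3 ± 3.04 in Del(CBS1), 96.0 ± 8.03 in Del(CBS1-2), 42.4 ± 15.2 in Del(CBS1-3), 95.3 ± 12.95 in Del(CBS1-4) and 43.1 ± 8.38 in Del(CBS1-5) (SD, n = 3 each). Del(CBS1-2) and Del(CBS1-4) stood above the other 4 groups without overlap, and the row of alleles did not order the levels. Ccn2 averaged 18.7 ± 1.84 CPM in Del(CBS1-2) and 21.1 ± 4.56 CPM in Del(CBS1-4), and 10.3 to 10.9 CPM in the other groups. Cd9 and Hs6st1 were likewise higher in every library of Del(CBS1-2) and Del(CBS1-4) than in any other distal library, and Scd1 was lower in every library of these alleles, at 75.8 ± 3.08 CPM in Del(CBS1-2) and 69.9 ± 3.63 CPM in Del(CBS1-4). Tut4 had its lowest means in the same pair, with some overlap with Del(CBS1), whereas Odc1 and Rc3h1 were lowest in Del(CBS1-4) alone, without overlap. In proximal tissue Rprm averaged 43.9 ± 13.7 CPM in Del(CBS1-4) and 37.8 ± 9.97 CPM in WT, which overlapped. Proximal Ccn2 averaged 98.9 ± 5.98 CPM in Del(CBS1-2), 91.6 ± 19.2 in Del(CBS1-4) and 36.3 to 46.1 in the other groups. Its Del(CBS1-4) libraries overlapped those of Del(CBS1-3) but not those of WT. In distal tissue Cdk5rap1 averaged 14.98 ± 1.59 CPM in WT, 16.1 ± 0.227 in Del(CBS1), 15.1 ± 0.120 in Del(CBS1-2), 16.2 ± 0.784 in Del(CBS1-3), 24.1 ± 2.16 in Del(CBS1-4) and 20.4 ± 1.84 in Del(CBS1-5). The libraries of the last pair of alleles stood above those of the other groups, and in proximal tissue the level of Cdk5rap1 was 21.2 ± 2.37 CPM in Del(CBS1-4) and 14.1 ± 1.29 CPM in WT.

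Beyond the Hoxd cluster and its flanks, 24 lists of limb, cell type and housekeeping genes were read in the same comparison, and edgeR called 0 genes of each of them in either direction. The lists differed in how their members lay around 0. Of 23 tested chondrogenesis genes 20 had a log2 fold change above 0 (48% of all genes tested), with a median of 0.67, and 13 had every Del(CBS1-4) library above every WT library, which held for 9.35% of all genes. At an unadjusted p under 0.05, 16 of them were higher in Del(CBS1-4), against 8.12% of all genes tested, and DESeq2 called 5 of them higher, against 1.2% of all genes. Col10a1, a collagen of hypertrophic cartilage, had 5.20, 3.86 and 4.72 CPM in Del(CBS1-4) and 2.39, 2.15 and 2.24 CPM in WT, with a log2 fold change of 1.02 ± 0.21 and an adjusted p of 0.0613. Matn3, a cartilage matrix protein, had 8.55, 4.495 and 8.40 CPM in Del(CBS1-4) and 1.98, 4.37 and 2.30 CPM in WT, with an adjusted p of 0.0815. The closest libraries of Matn3 were replicate 2 of both groups. Col2a1, the main cartilage collagen, chosen after its values were seen, had 1591, 1291 and 1557 CPM in Del(CBS1-4) and 1078, 1054 and 883 CPM in WT, with an adjusted p of 0.0989. Sox9, the master regulator of cartilage and likewise chosen afterwards, differed the other way, by -0.19 ± 0.11 on the log2 scale with an adjusted p of 0.420. Ucma, a late cartilage marker, had 0 counts over the libraries of either group.

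Tendon and connective tissue genes had all 19 tested members above 0, with a median of 0.56, and 18 of them were higher at an unadjusted p under 0.05, against 8.12% of all genes. Without Del(CBS1-4) replicate 3 the median was 0.33. Fmod, a collagen-binding proteoglycan, had 40.5, 29.99 and 53.3 CPM in Del(CBS1-4) and 23.3, 26.9 and 21.7 CPM in WT, with an adjusted p of 0.0938. Joint interzone genes had 10 of 13 above 0, with a median of 0.28. Their leading member was Gdf5, the growth factor that marks forming joints, with 176, 157 and 181 CPM in Del(CBS1-4) and 85.0, 126 and 85.1 CPM in WT, and an adjusted p of 0.146. For both genes the Del(CBS1-4) library nearest to WT and the WT library nearest to Del(CBS1-4) were replicates 2, and the groups did not overlap. In the Hedgehog pathway, which patterns the digits from the posterior margin, 12 of 14 tested genes lay above 0, with a median of 0.25. Disp1, which releases the ligand from its source cells, averaged 90.6 ± 4.31 CPM in Del(CBS1-4) and 74.1 ± 4.24 CPM in WT, with an adjusted p of 0.0912. The ligand Shh itself had 0 counts over the Del(CBS1-4) libraries and 4 over the WT libraries. Retinoic acid genes had 13 of 15 above 0 with a median of 0.20. At an unadjusted p under 0.05, 8 of 13 joint, 9 of 14 Hedgehog and 8 of 15 retinoic acid genes were higher. In these lists 0 genes were lower, and the shares over all genes were 8.12% higher and 7.15% lower.

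Among BMP and Wnt genes 28 of 39 lay above 0, with a median of 0.20. At an unadjusted p under 0.05, 15 of them were higher and 5 lower, against 8.12% and 7.15% of all genes. Id3, a BMP target that blocks bHLH factors, averaged 333 ± 11.4 CPM in Del(CBS1-4) and 278 ± 20.9 CPM in WT, with an adjusted p of 0.0838. FGF and apical ridge genes had 15 of 21 above 0 with a median of 0.14, and 9 were higher and 2 lower at that unadjusted p. Spry2, an inhibitor induced by FGF, averaged 49.2 ± 3.37 CPM in Del(CBS1-4) and 38.7 ± 2.83 CPM in WT, with an adjusted p of 0.0858. The distal patterning genes were split, with 9 of 22 above 0 and a median of -0.06. Msx1, a homeobox gene of undifferentiated distal mesenchyme, had 483, 468 and 431 CPM in Del(CBS1-4) and 300.2, 384 and 350 CPM in WT, with a log2 fold change of 0.41 ± 0.10 and an adjusted p of 0.0865. Lhx9, a LIM homeobox gene of the same tissue, had 341, 385 and 314 CPM in Del(CBS1-4) and 452, 436 and 496 CPM in WT, with a log2 fold change of -0.42 ± 0.11 and an adjusted p of 0.0938. These opposite differences were each without overlap. Proximal patterning genes had 10 of 17 above 0 with a median of 0.09. Of the HoxA, HoxB and HoxC genes 12 of 29 lay above 0, with a median of -0.09. Hoxa11, the forearm paralogue of Hoxd11, had 11.0, 9.41 and 18.7 CPM in Del(CBS1-4) and 52.3, 11.2 and 37.7 CPM in WT, with an adjusted p of 0.149, and the low WT value was again that of replicate 2.

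Red cell genes had the lowest median of the lists outside the Hoxd cluster. Of 11 tested erythroid genes 2 lay above 0, the median was -1.11, and in 7 every Del(CBS1-4) library was below every WT library, against 7.96% of all genes. These 7 had an unadjusted p under 0.05, against 7.15% of all genes that were lower at this p, and DESeq2 called 5 lower, against 0.716% of all genes. Slc4a1, the anion exchanger of the red cell membrane, had 36.7, 35.8 and 32.1 CPM in Del(CBS1-4) and 92.3, 52.9 and 79.6 CPM in WT, with an adjusted p of 0.0845. Epb42, a red cell membrane skeleton protein, averaged 2.49 ± 0.903 CPM in Del(CBS1-4) and 6.95 ± 2.58 CPM in WT, with an adjusted p of 0.0810. The summed level of the erythroid genes ran from 2062 to 2540.0 CPM in Del(CBS1-4) and from 2672 to 3758 CPM in WT, with WT replicate 2 lowest. All 21 tested cholesterol synthesis genes had a log2 fold change below 0, but small ones, with a median of -0.15. Of these 9 were lower at an unadjusted p under 0.05, against 7.15% of all genes, and DESeq2 called 4 lower, against 0.716%. Dhcr7, which makes the last step to cholesterol, averaged 54.5 ± 2.68 CPM in Del(CBS1-4) and 66.8 ± 7.77 CPM in WT, with an adjusted p of 0.0757. Msmo1, a sterol oxygenase earlier in that pathway, averaged 49.7 ± 2.06 CPM in Del(CBS1-4) and 63.7 ± 8.55 CPM in WT, with an adjusted p of 0.0790.

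Markers of other cell types in the dissected tissue moved with the groups in part. Of 26 tested skeletal muscle genes 25 lay above 0, with a median of 0.93, and their summed level was 164, 149 and 259 CPM in Del(CBS1-4) and 120, 147 and 144 CPM in WT. Replicate 3 of Del(CBS1-4) was the highest, and without it the median was 0.31. Myog, the factor of muscle differentiation, had 6.77, 5.34 and 16.1 CPM in Del(CBS1-4) and 4.23, 3.68 and 3.05 CPM in WT, with an adjusted p of 0.207, while Ckm and Myf6, markers of mature muscle, had 0 and 4 counts over the Del(CBS1-4) libraries and 1 and 1 over the WT libraries. Epidermis and ectoderm genes had 15 of 20 above 0 with a median of 0.17 and a summed level of 1187 to 1212 CPM in Del(CBS1-4) and 1069.5 to 1089.7 CPM in WT. At an unadjusted p under 0.05, 9 of these and 7 of the muscle genes were higher, against 8.12% of all genes, and 0 of either were lower. Wnt7a, the dorsal ectoderm signal, averaged 17.2 ± 1.33 CPM in Del(CBS1-4) and 11.9 ± 2.13 CPM in WT, with an adjusted p of 0.0932. The medians were -0.01 for endothelium (16 tested), 0.07 for nerve and Schwann cells (11) and 0.02 for macrophages and leukocytes (14), and the summed level of the endothelial genes was 623 to 641 CPM in Del(CBS1-4) and 594 to 614 CPM in WT. With the muscle score as a covariate the 4 Hoxd genes, Scd1 and Cdk5rap1 passed the threshold, while Rprm, Ccn2, Cd9, Hs6st1, Odc1, Rc3h1 and Tut4 did not. The median was then 0.29 for tendon genes, 0.52 for chondrogenesis genes and -0.88 for erythroid genes. The part of ectoderm and red cell content in the other differences was not tested.

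Lists of general cell functions lay near the median of all genes. The median log2 fold change was -0.03 for proliferation (22 tested), 0.05 for immediate early and heat shock genes (16), 0.00 for hypoxia and glycolysis (20), -0.06 for CTCF and cohesin (11), -0.02 for Polycomb (26), -0.02 for imprinted genes (25) and 0.05 for processed gene copies (76). The proliferation gene with the smallest p was Rrm2, a ribonucleotide reductase subunit, at -0.25 on the log2 scale with an adjusted p of 0.0932. Pds5b and Nipbl, which regulate cohesin on DNA, differed by -0.12 and -0.10 on that scale.

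**Figure D4:**
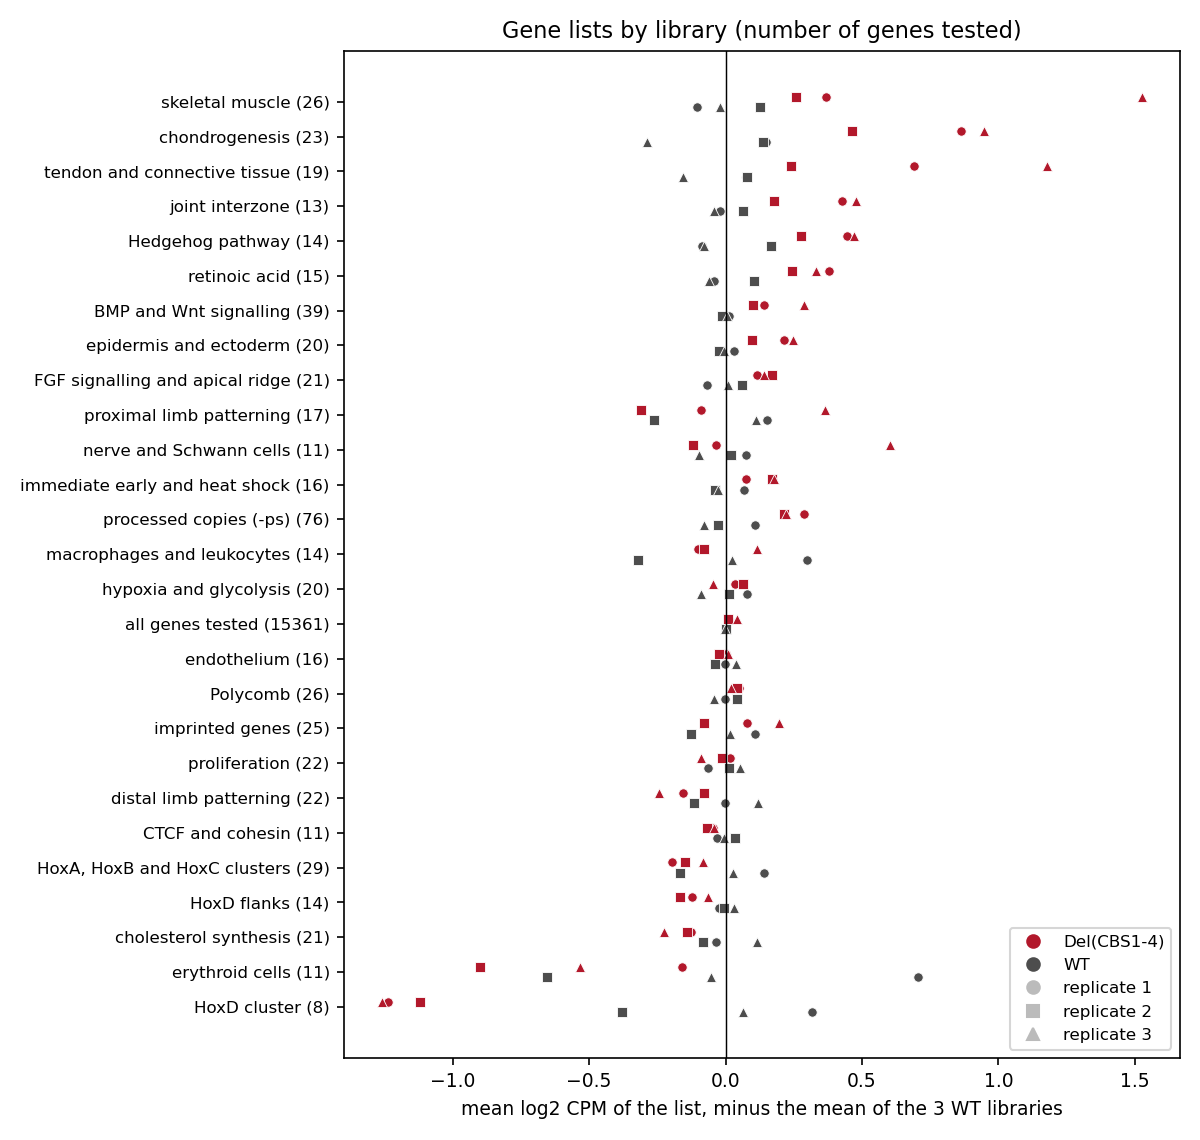
List score, the mean log2 CPM of the tested genes of a list, in each distal library minus the WT mean, with Del(CBS1-4) and WT marked apart. The chondrogenesis score was 5.87, 5.47 and 5.95 in Del(CBS1-4) and 5.15, 5.14 and 4.72 in WT, and the erythroid score 5.11, 4.37 and 4.74 in Del(CBS1-4) and 5.97, 4.61 and 5.21 in WT.

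Without WT replicate 2, 525 of 15660 genes (3.35%) passed edgeR's test, 304 higher (1.94%) and 221 lower (1.41%), and several lists held called members. Of 23 chondrogenesis genes 7 rose and 0 fell, of 15 retinoic acid genes 5 rose, of 14 Hedgehog genes 4 rose, and tendon, epidermis, BMP and Wnt, FGF and joint lists held 1 to 3 genes that rose. Of 11 erythroid genes 6 fell and of 21 cholesterol synthesis genes 7 fell, while 0 of 26 muscle genes changed. The medians without this library were 0.86 for chondrogenesis and -1.30 for erythroid genes, against 0.67 and -1.11 with it. The median of the HoxA, HoxB and HoxC genes was -0.21 without it, with 2 called lower, that of proximal patterning genes 0.01, with 1 called lower, and that of nerve genes 0.18. Of 22 distal patterning genes 2 rose and 3 fell. These calls rest on 2 WT libraries. WT replicate 2 was left out because its values lay nearest to Del(CBS1-4), a choice that by itself tends to widen the difference between the groups. The calls and medians of this fit are thus no independent support. Without WT replicate 1 or WT replicate 3 instead, 7 genes were called.

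Compared with the neighbouring alleles of the series, 1 of 8 tested Hoxd genes passed the test against Del(CBS1-3) and 4 against Del(CBS1-5), all lower in Del(CBS1-4). Of all genes tested, 10.7% passed against Del(CBS1-3) (4.6% lower) and 16.7% against Del(CBS1-5) (7.74% lower). The single Hoxd call against Del(CBS1-3) is thus near the share of all genes. Both comparisons share the Del(CBS1-4) libraries. Hoxd10 averaged 111 ± 5.90 CPM in WT, 96.9 ± 2.46 in Del(CBS1), 51.9 ± 4.54 in Del(CBS1-2), 54.2 ± 4.14 in Del(CBS1-3), 54.0 ± 2.34 in Del(CBS1-4) and 85.6 ± 5.13 in Del(CBS1-5). The log2 difference of Del(CBS1-4) from Del(CBS1-3) was 0.01 ± 0.07 for Hoxd10, -0.02 ± 0.08 for Hoxd13, -0.27 ± 0.09 for Hoxd12 and -0.49 ± 0.23 for Hoxd9, and none of these passed the test. Hoxd11 averaged 34.9 ± 4.13 CPM in Del(CBS1-4) and 45.3 ± 4.80 CPM in Del(CBS1-3), and its log2 difference of -0.37 ± 0.11 passed with an adjusted p of 0.0469. That call was lost without Del(CBS1-3) replicate 1 or 3 and without Del(CBS1-4) replicate 1 or 3, at adjusted p values of 0.203, 0.0760, 0.102 and 0.183.

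Against Del(CBS1-5), whose name adds 1 more site, 4 Hoxd genes were lower in Del(CBS1-4), as were 7.74% of all genes tested. The log2 difference was -0.65 ± 0.07 for Hoxd10 (adjusted p 0.000151), -0.74 ± 0.11 for Hoxd11 (0.00157), -1.33 ± 0.22 for Hoxd9 (0.00219) and -0.38 ± 0.09 for Hoxd12 (0.0129). Hoxd11 averaged 34.9 ± 4.13 CPM in Del(CBS1-4) and 58.6 ± 0.497 CPM in Del(CBS1-5), and Hoxd9 averaged 7.24 ± 0.517 CPM in Del(CBS1-4) and 18.4 ± 1.54 CPM in Del(CBS1-5), so no libraries overlapped. Hoxd13 did not pass, with 846 ± 66.3 CPM in Del(CBS1-4) and 955 ± 20.5 CPM in Del(CBS1-5) and a log2 difference of -0.16 ± 0.08. Hoxd10, Hoxd11 and Hoxd9 passed the threshold in each of 6 fits that left out 1 library, and Hoxd12 in 4 of them, not without Del(CBS1-4) replicate 3 (adjusted p 0.0623) or Del(CBS1-5) replicate 1 (0.0553). Among the 6 genotypes in distal tissue Del(CBS1-4) had the lowest mean of Hoxd12, Hoxd11, Hoxd9 and Hoxd8, though its libraries overlapped those of Del(CBS1-2) for Hoxd11 and Hoxd9, those of Del(CBS1-3) for Hoxd12, and those of every group but Del(CBS1-5) for Hoxd8.

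**Figure D5:**
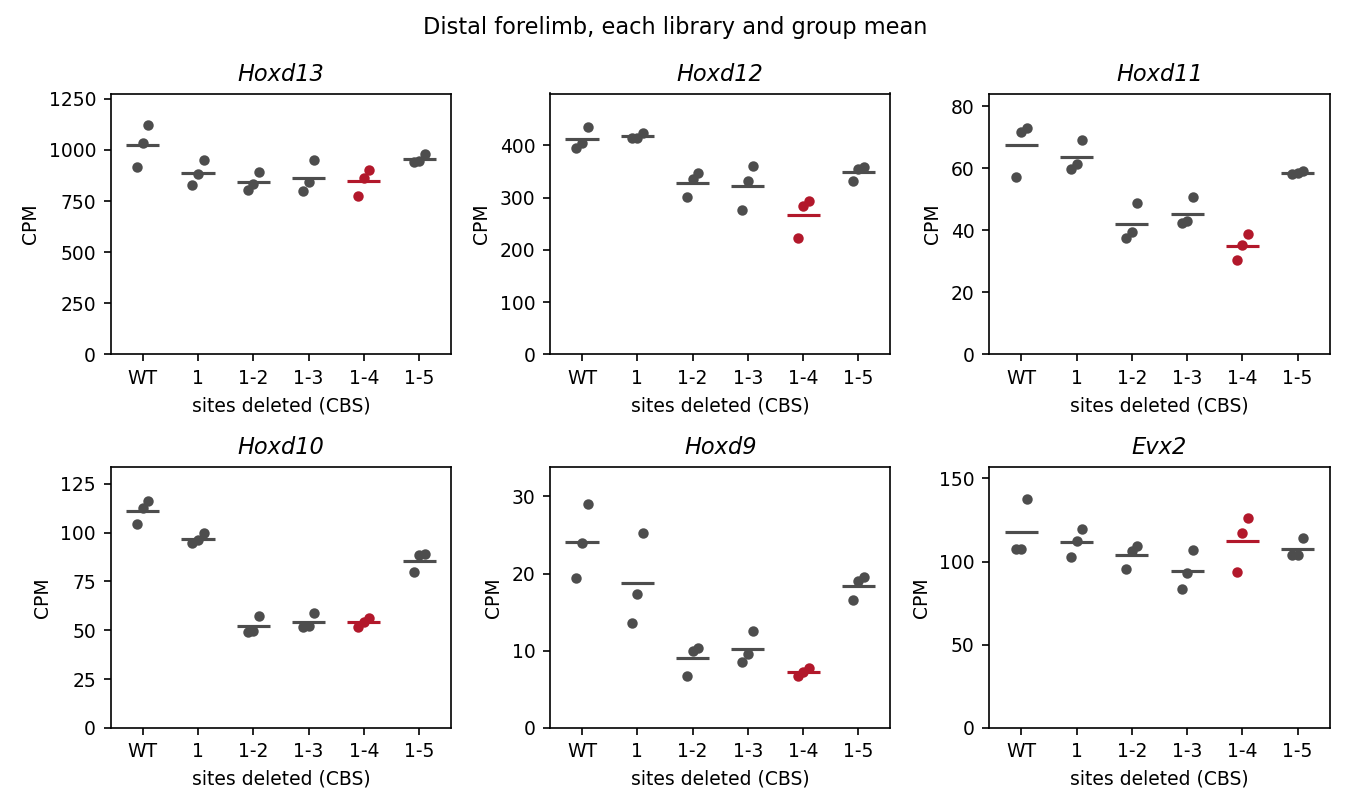
Levels of Hoxd13, Hoxd12, Hoxd11, Hoxd10, Hoxd9 and Evx2 in distal forelimb of WT and the 5 alleles, in CPM, with points for libraries and a line for the mean (n = 3 each). Hoxd10 stands at 51.9 to 54.2 CPM in Del(CBS1-2), Del(CBS1-3) and Del(CBS1-4), and at 85.6 CPM in Del(CBS1-5).

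Many genes outside the cluster also differed between these alleles. Del(CBS1-4) differed from Del(CBS1-3) in 1645 of 15361 genes (10.7%), 938 higher (6.11%) and 707 lower (4.6%). Of 23 chondrogenesis genes 14 were higher in Del(CBS1-4), of 14 Hedgehog genes 7, of 19 tendon genes 6, and of 11 erythroid genes 6 were lower. Dpt, a connective tissue matrix protein, averaged 4.40 ± 2.31 CPM in Del(CBS1-4) and 0.398 ± 0.412 CPM in Del(CBS1-3), and Hddc3, a nucleotide hydrolase, averaged 12.7 ± 0.739 CPM in Del(CBS1-4) and 44.3 ± 11.2 CPM in Del(CBS1-3). These 2 genes passed the threshold whichever of the 6 libraries was left out. Matn1, a cartilage matrix protein, averaged 8.21 ± 4.82 CPM in Del(CBS1-4) and 0.354 ± 0.550 CPM in Del(CBS1-3), and Hbb-bh1, an embryonic globin, averaged 49.5 ± 7.19 CPM in Del(CBS1-4) and 230.0 ± 111 CPM in Del(CBS1-3). The call on Matn1 was lost without Del(CBS1-3) replicate 1 or 3 or Del(CBS1-4) replicate 3, and that on Hbb-bh1 without Del(CBS1-3) replicate 3 or Del(CBS1-4) replicate 3. The count of 1645 became 286 without Del(CBS1-3) replicate 1, 337 without Del(CBS1-3) replicate 3, 600 without Del(CBS1-4) replicate 1 and 464 without Del(CBS1-4) replicate 3. Over these 4 fits the called genes numbered 1 to 4 for chondrogenesis, 2 to 4 for Hedgehog, 1 to 3 for tendon and 0 to 3 for erythroid genes. Of the 15652 to 15680 genes tested in these fits, 171 to 358 were higher and 115 to 242 lower.

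Del(CBS1-4) differed from Del(CBS1-5) in 2563 genes (16.7%), 1374 higher (8.94%) and 1189 lower (7.74%). Of 23 chondrogenesis genes 17 were higher in Del(CBS1-4), of 19 tendon genes 15, of 14 Hedgehog genes 10, and of 11 erythroid genes 8 were lower and 1 higher. Hemgn, a nuclear protein of blood progenitors, averaged 0.726 ± 0.0328 CPM in Del(CBS1-4) and 10.6 ± 6.92 CPM in Del(CBS1-5), and the embryonic globin gene Hba-x averaged 227 ± 35.3 CPM in Del(CBS1-4) and 1094 ± 436 CPM in Del(CBS1-5). Matn1 was higher here too, at 8.21 ± 4.82 CPM in Del(CBS1-4) and 0.236 ± 0.205 CPM in Del(CBS1-5). The count of 2563 became 1474 without Del(CBS1-4) replicate 1, 1038 without Del(CBS1-4) replicate 3, 701 without Del(CBS1-5) replicate 1 and 828 without Del(CBS1-5) replicate 2. Over these 4 fits the called genes numbered 9 to 12 for chondrogenesis, 4 to 14 for tendon, 4 to 7 for Hedgehog and 6 or 7 lower for erythroid genes. Of the 15651 to 15657 genes tested in these fits, 393 to 799 were higher and 308 to 675 lower.

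Several of the largest differences between these alleles were in processed gene copies and ribosomal protein genes, whose near-identical copies cannot be told apart with certainty by reads of 50 nucleotides. The part of read assignment in these differences was not tested. Of 76 tested processed copies, 5 were higher and 5 lower against Del(CBS1-3), where 6.11% and 4.6% of all genes were. Against Del(CBS1-5) 9 were higher and 4 lower, where 8.94% and 7.74% of all genes were. Pcna-ps2, a copy of the replication clamp gene Pcna, averaged 44.2 ± 2.69 CPM in Del(CBS1-4), 0.608 ± 0.210 CPM in Del(CBS1-5) and 37.3 ± 13.5 CPM in WT. Rps3a1, a ribosomal protein gene, averaged 74.6 ± 24.2 CPM in Del(CBS1-4), 1.62 ± 0.361 CPM in Del(CBS1-3) and 60.9 ± 51.6 CPM in WT. Rtraf-ps averaged 0.847 ± 0.473 CPM in Del(CBS1-4), 18.2 ± 0.286 CPM in Del(CBS1-3) and 8.36 ± 8.24 CPM in WT. For Rps3a1 and Rtraf-ps the WT libraries spread almost as widely as the alleles differed.

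In proximal forelimb, which holds the future arm, edgeR called 0 of 15813 genes between Del(CBS1-4) and WT, with 2229 (14.1%) at an unadjusted p under 0.05. DESeq2, added after these data were seen, called 97 (0.613%), 38 higher and 59 lower, among them Hoxd9, Hoxd8, Hoxd4 and Hoxd3. Hoxd10 had 134, 121 and 125 CPM in proximal Del(CBS1-4) libraries and 134, 131 and 143 CPM in proximal WT libraries, which overlapped, with a log2 fold change of -0.10 ± 0.08. Hoxd9 had 50.8, 48.3 and 47.1 CPM in proximal Del(CBS1-4) and 68.1, 66.8 and 66.5 CPM in proximal WT, without overlap, with a log2 fold change of -0.46 ± 0.09 and an adjusted p of 0.111. Hoxd4 had the smallest adjusted p of that tissue, 0.0888, at 10.1, 9.60 and 10.3 CPM in proximal Del(CBS1-4) and 23.6, 19.9 and 22.6 CPM in proximal WT.

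The effect of Del(CBS1-4) differed between the tissues for Hoxd10 and Hoxd9, with the more negative log2 fold change in distal tissue, and for Has2, the main hyaluronan synthase of the limb. In a fit of all 36 libraries, 3 of 16292 genes (0.0184%) passed the test of the distal minus proximal effect. The difference in log2 fold change was -0.94 ± 0.11 for Hoxd10 (adjusted p 1.5e-05) and -1.28 ± 0.24 for Hoxd9 (0.0392). Has2 had 66.9, 87.4 and 54.5 CPM in distal Del(CBS1-4) and 94.5, 101 and 101 CPM in distal WT, and 46.7, 47.6 and 46.9 CPM in proximal Del(CBS1-4) and 32.4, 40.2 and 33.9 CPM in proximal WT. Its libraries were thus lower in Del(CBS1-4) in distal tissue and higher in proximal tissue, each without overlap, and the difference was -0.91 ± 0.16 (adjusted p 0.0297). Hoxd10 passed in all 6 fits that left out 1 embryo number, but Has2 was lost without replicates 1 or 3 of either genotype, and Hoxd9 in 5 of 6, all but the fit without WT replicate 2; the adjusted p reached 0.444 for Has2 and 0.561 for Hoxd9.

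Distal and proximal libraries of the same number deviated together within each genotype, and a fit with these pairs as a block called 15 of 15474 genes (0.0969%), 10 higher and 5 lower. Hoxd11 was then called with Hoxd10, Hoxd9 and Has2, at -0.69 ± 0.10, and its level was 56.2 ± 7.67 CPM in proximal Del(CBS1-4) and 67.2 ± 5.00 CPM in proximal WT. Aldh1a2, which synthesises retinoic acid, had 474, 364 and 372 CPM in distal Del(CBS1-4) and 188, 296 and 187 CPM in distal WT. In proximal tissue Aldh1a2 had 22.4, 28.2 and 28.2 CPM in Del(CBS1-4) and 42.2, 46.4 and 39.2 CPM in WT. The direction was opposite in the tissues, and the difference in the blocked fit was 1.55 ± 0.17, with an adjusted p of 0.00385. Gdf5 averaged 172 ± 12.7 CPM in distal Del(CBS1-4) and 98.7 ± 23.6 CPM in distal WT, and 68.1 ± 3.73 CPM in proximal Del(CBS1-4) and 76.0 ± 6.33 CPM in proximal WT, a difference of 0.97 ± 0.14. Sim2, a bHLH-PAS transcription factor, averaged 15.7 ± 3.58 CPM in distal Del(CBS1-4) and 5.33 ± 1.65 CPM in distal WT, and 12.53 ± 3.62 CPM in proximal Del(CBS1-4) and 20.8 ± 5.33 CPM in proximal WT, a difference of 2.28 ± 0.37. Smpd3, a neutral sphingomyelinase of cartilage and bone, was near 1 CPM in distal tissue, at 0.702 ± 0.115 CPM in Del(CBS1-4) and 0.925 ± 0.329 CPM in WT, but averaged 10.5 ± 4.53 CPM in proximal Del(CBS1-4) and 1.495 ± 0.702 CPM in proximal WT, a difference of -3.18 ± 0.50. The other 7 genes, all with a positive difference, were Nell2, Jdp2, Tnc, Cytl1, Cdh15, Hic1 and Fzd8, with differences of 0.51 to 1.39.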

How the data were processed

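Sample titles gave the groups and replicate numbers. The authors deposited whole-number read counts per gene and, separately, FPKM values (fragments scaled to length and depth) with gene symbols and coordinates, per the file headers. Per the submitters' processing notes the build was mm10 and the tools included STAR 2.7.0, cutadapt 1.16, bedtools 2.27.1 and Cufflinks 2.2.1. Which tool made the counts, and whether it used strand, is not given in the sources used here. Genes numbered 50833 in the counts and 55052 in the FPKM values, and chromosomes X, Y and M were only in the FPKM values.

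The deposited counts were tested in R 4.3.3 with the quasi-likelihood F test of edgeR 4.0.16 (glmQLFit, glmQLFTest), after TMM scaling and a filterByExpr filter by group, in 1 fit of the 18 distal libraries, 1 of the 18 proximal libraries, or all 36 libraries for the difference between tissues. Each genotype in a tissue had its own coefficient. P-values were adjusted by Benjamini-Hochberg over all tested genes, and a gene was called when the adjusted p was under 0.05. Fold changes are log2 with their SE, levels are CPM with TMM over all 36 libraries, and list scores are mean log2 CPM with a prior count of 1. As alternatives, DESeq2 1.42.0, other scaling and filters, limma 3.58.1 on log2(FPKM + 1) and log2(FPKM + 0.1), a muscle covariate, blocks and left-out libraries were run. The scripts were tested on simulated counts. Chi-square per degree of freedom between replicates was 2.64 to 20.1 over the 12 groups, so no pair agreed within sampling noise.

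Replicate numbers pair the tissues: deviations from group means correlated over genes at 0.175 to 0.494 between the distal and proximal libraries of 1 number, in all 6 pairs, and at most at -0.014 between other pairs. Between Del(CBS1-4) and WT the same-number correlations were 0.012 to 0.058, and those of other pairs were -0.085 to 0.059. The values thus showed no pairing by number here, and a shared litter or date was not tested.

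The genes and lists were chosen with earlier results of these data known. Named are all tested Hoxd genes, the other called genes whose higher group averaged 50 or more counts and whose libraries did not overlap (up to 12 per direction, up to 6 in the other comparisons, unnamed gene models passed over), and from each list those with the smallest p. A gene that this rule names is not reported here. Further genes were chosen after their values were seen: the flanks, Gm14396, Frzb, Map3k20, Col2a1, Sox9, the markers at or near 0, and the genes of the fit with embryos blocked. Promoter windows are those of RefSeq on GRCm38.p6, in which all 8 tested Hoxd genes were found.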

Additional observations from a re-analysis of the deposited data

Results flagged for a closer look

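For 3 genes the effect of Del(CBS1-4) differed between distal and proximal forelimb by edgeR's test of the difference itself, with adjustment over 16292 genes. The distal minus proximal difference in log2 fold change was -0.94 for Hoxd10, -0.91 for Has2 and -1.28 for Hoxd9. Of 6 fits that left out 1 embryo number, Hoxd10 passed in 6, Has2 in 2 and Hoxd9 in 1. This test did not use the pairing of distal and proximal libraries. The fit with these pairs as a block called 15 genes, Hoxd10, Has2 and Hoxd9 among them.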

How the results depend on the processing

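The count of 13 called genes became 1073 with no filter on low counts, 295 with DESeq2, 2 in a fit of only the 6 libraries compared and 6 with the skeletal muscle score as a covariate. It ran from 6 to 525 when single libraries were left out. The count of 4 called Hoxd genes became 8 with no filter, 6 with DESeq2 (Hoxd13 and Hoxd4 added) and 2 with only the 6 libraries, and ran from 4 to 6 when single libraries were left out. With the replicate number as a block in the 6 libraries, 1 gene was called in all, Hoxd10, so the Hoxd count was 1. Same-number samples of Del(CBS1-4) and WT showed no pairing in their values, but a shared litter or date was not tested. Against Del(CBS1-3), where same-number samples were not checked, the replicate block gave 197 genes, and single libraries left out gave 286 to 1901. Against Del(CBS1-5) they gave 701 to 3083. The distal minus proximal count of 3 became 15 with the block over tissues and 12 with DESeq2, and ran from 1 to 24 with single embryos left out. The proximal count of 0 became 97 with DESeq2, an alternative added after the data were seen. In each case the cause was not tested. Over 68 named genes and these alternatives 0 values reversed, 85 moved past the threshold and 84 fell short of it. Hoxd3, at 0.0694 to 0.427 CPM in Del(CBS1-4) and 0.486 to 1.71 CPM in WT, did not pass edgeR's test, and the part of depth in this was not tested.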
